A study of Homo sapiens with 34 samples.

Results

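The 10 genes described here are a named set of the interleukin-1 (IL-1) family and the inflammasome, namely IL1A, IL1B, IL1RN, IL1R1, IL1R2, IL1RAP, IL18, IL33, NLRP3 and CASP1. They were matched by symbol among the 20255 genes of the deposited expression table, and all 10 were found. The established human embryonic stem cell line H1 was differentiated towards blood as embryoid bodies (EBs) that were then plated, without added haematopoietic cytokines. RNA was sequenced in 34 samples of 12 populations, 3 samples of each of 11 populations and 1 sample of untreated, undifferentiated H1 cells. The label of the day 0 EBs names BMP4 and hVEGF, and the labels of all later populations name hVEGF. By the study's methods EBs formed without either factor, and BMP4 and VEGF were added when they were left to attach. VEGF alone was kept from day 2, and the exposure of the day 0 EBs is not certain. Unsorted cells were taken at days 0, 2 and 4. Cells sorted as CD43+ and CD43- were taken at days 6, 9 and 12, and CD43+/CD45+ and CD43-/CD45- cells at day 16, which are called day 16 CD43+ and CD43- cells here. All samples come from a single cell line, and the CD43- populations hold every cell without the surface protein, whatever its lineage.

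IL-1α (IL1A) and IL-1β (IL1B) are inflammatory cytokines that bind the receptor IL1R1, which signals together with the shared co-receptor IL1RAP. IL1RN encodes a secreted antagonist that occupies IL1R1 without signalling, and IL1R2 encodes a decoy receptor that binds the cytokine and carries no signalling domain. IL-18 (IL18) and IL-33 (IL33) are relatives with receptors of their own, IL-18 being made as a precursor like IL-1β and IL-33 being kept in the nucleus of endothelial, epithelial and stromal cells until it is released. NLRP3 is a cytosolic sensor that assembles an inflammasome, and CASP1 is the protease that this complex activates and that cuts the precursors of IL-1β and IL-18. In blood the pathway is best known from monocytes, macrophages and neutrophils. RNA levels say nothing of whether a precursor was cut or a cytokine released.

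The genes lie in few places of the genome (GRCh38). IL1R2 (chr2:101991844-102028544, plus strand) and IL1R1 (chr2:102064544-102179874, plus strand) are neighbours on chromosome 2, as are IL1A (chr2:112773915-112784590, minus strand), IL1B (chr2:112829751-112836903, minus strand) and IL1RN (chr2:113107214-113134016, plus strand). CASP1 (chr11:105025443-105035250, minus strand) and IL18 (chr11:112143251-112164117, minus strand) share chromosome 11, and IL1RAP (chr3:190514051-190659750, plus strand), IL33 (chr9:6215786-6257983, plus strand) and NLRP3 (chr1:247416156-247449108, plus strand) lie apart. In GENCODE v29 other genes overlap IL1R1, IL1RAP and IL18, none of them in the table, and the strand setting of the counting is not given in the sources used here. CASP1 resembles its neighbour CARD16 so closely that reads may be shared between them, and both values are uncertain in that respect.

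Stretches upstream of the transcription starts are shown for IL1B, IL1RN and NLRP3, which were high together in late CD43+ cells, and for IL33, which was high in the opposite population. They come from RefSeq windows (GRCh38.p14) of 250 bases before a start, kept to the longest part without an exon of GENCODE v29. Capitals mark matches on either strand to short motifs of factors known in myeloid and inflammatory genes.
IL1B, chr2:112836904-112837029, minus strand: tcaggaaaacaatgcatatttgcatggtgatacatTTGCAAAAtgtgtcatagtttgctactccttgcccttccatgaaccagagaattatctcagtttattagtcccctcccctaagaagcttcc
IL1RN, chr2:113127348-113127560, plus strand: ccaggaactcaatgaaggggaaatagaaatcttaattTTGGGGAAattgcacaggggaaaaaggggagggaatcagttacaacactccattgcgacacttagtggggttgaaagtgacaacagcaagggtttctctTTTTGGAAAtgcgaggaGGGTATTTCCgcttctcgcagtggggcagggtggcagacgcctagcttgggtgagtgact
NLRP3, chr1:247415923-247416155, plus strand: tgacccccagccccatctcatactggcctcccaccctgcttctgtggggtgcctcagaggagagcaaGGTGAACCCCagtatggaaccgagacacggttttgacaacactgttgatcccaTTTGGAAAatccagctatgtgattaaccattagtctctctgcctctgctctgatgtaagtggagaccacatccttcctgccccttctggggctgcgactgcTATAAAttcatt
IL33, chr9:6214899-6215148, plus strand: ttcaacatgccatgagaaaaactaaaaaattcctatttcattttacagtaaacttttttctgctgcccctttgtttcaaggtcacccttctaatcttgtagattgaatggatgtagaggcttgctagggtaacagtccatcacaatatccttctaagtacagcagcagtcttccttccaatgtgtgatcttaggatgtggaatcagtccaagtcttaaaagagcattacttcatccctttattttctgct
The motifs searched were GAGGAA (PU.1), TTNNGNAA (C/EBP), TGANTCA (AP-1), GGG and CC with 5 bases of any kind between them (NF-kB) and, for the TATA box, the letters TATAAA. Both strands were searched, N stands for any base, and matches of different motifs may overlap. Of the 10 genes, 8 had a window, 16 windows in all because several have more than 1 start. The C/EBP letters were in 9 of the 16 windows against 33.2% of all 35116 windows, the PU.1 letters in 5 against 23.6%, the AP-1 letters in 3 against 6.57%, the NF-kB letters in 6 against 54.4% and the TATA box in 5 against 10.7%. Some windows of the same gene overlap, as those of IL1A do, and others lie kilobases apart, as those of IL1R2 do. The 16 windows are therefore not all separate observations. The IL1B window held 3 C/EBP matches, of which 1 lies in the stretch shown, and the IL33 window shown held none of the motifs. A PU.1 match of the NLRP3 window and the TATA box matches of the IL1RN window lie outside the stretches shown. A match to such short letters is a description of the sequence and no sign of binding.

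All levels are GC-normalised tag counts as deposited, called levels here. The 34 samples held the same set of values in another order, with a median over genes of 197, a highest value of 90700 and 1292 genes at 0 in each, so a level is close to a rank within its sample and sequencing depth is unknown. Levels are compared between populations and never between genes, since they are not divided by gene length. In sorted or mixed cells, fewer cells of a type and less RNA per cell cannot be told apart. SPN, the gene of CD43, was at 2338 to 9460 in the CD43+ samples and at 18 to 328 in the CD43- samples, and PTPRC, the gene of CD45, was at 10084 to 15868 and at 18 to 42 in the day 16 populations. The day 12 CD43- samples 2 and 3 stood apart from sample 1 in transcripts of blood cells. CSF1R, the receptor of the macrophage growth factor, was at 71, 1379 and 2314 in the 3 samples, and the haemoglobin scavenger receptor CD163 was at 32, 936 and 838. The 12 monocyte and macrophage markers summed to 411, 5930 and 8575 in these samples and to 119809 to 198051 in the day 12 CD43+ samples. The same order was seen in the sums of 10 neutrophil (454, 1539 and 8134) and 6 megakaryocyte genes (193, 434 and 1124). It was also seen for 8 mast cell, eosinophil and basophil genes (0, 12 and 527) and 6 erythroid genes (3, 71 and 189). The 5 lymphoid genes in the table did not take it, with sums of 1328, 1275 and 1283. Where values are given without samples 2 and 3, the day 12 CD43- population is 1 sample, which limma then assumes to vary like the other populations. The day 16 CD43- samples held transcripts of the neutrophil granule protein MPO at 4657, 12840 and 8970, with the 10 neutrophil markers summing to 7100 to 21940 against 89 to 182 in the day 9 CD43- samples. Differences are log2 fold changes of level + 1 with their SE from limma, over 3 samples a population, and a gene is called where its Benjamini-Hochberg adjusted p was below 0.05 and its fold change above 4.

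**Figure D1:**
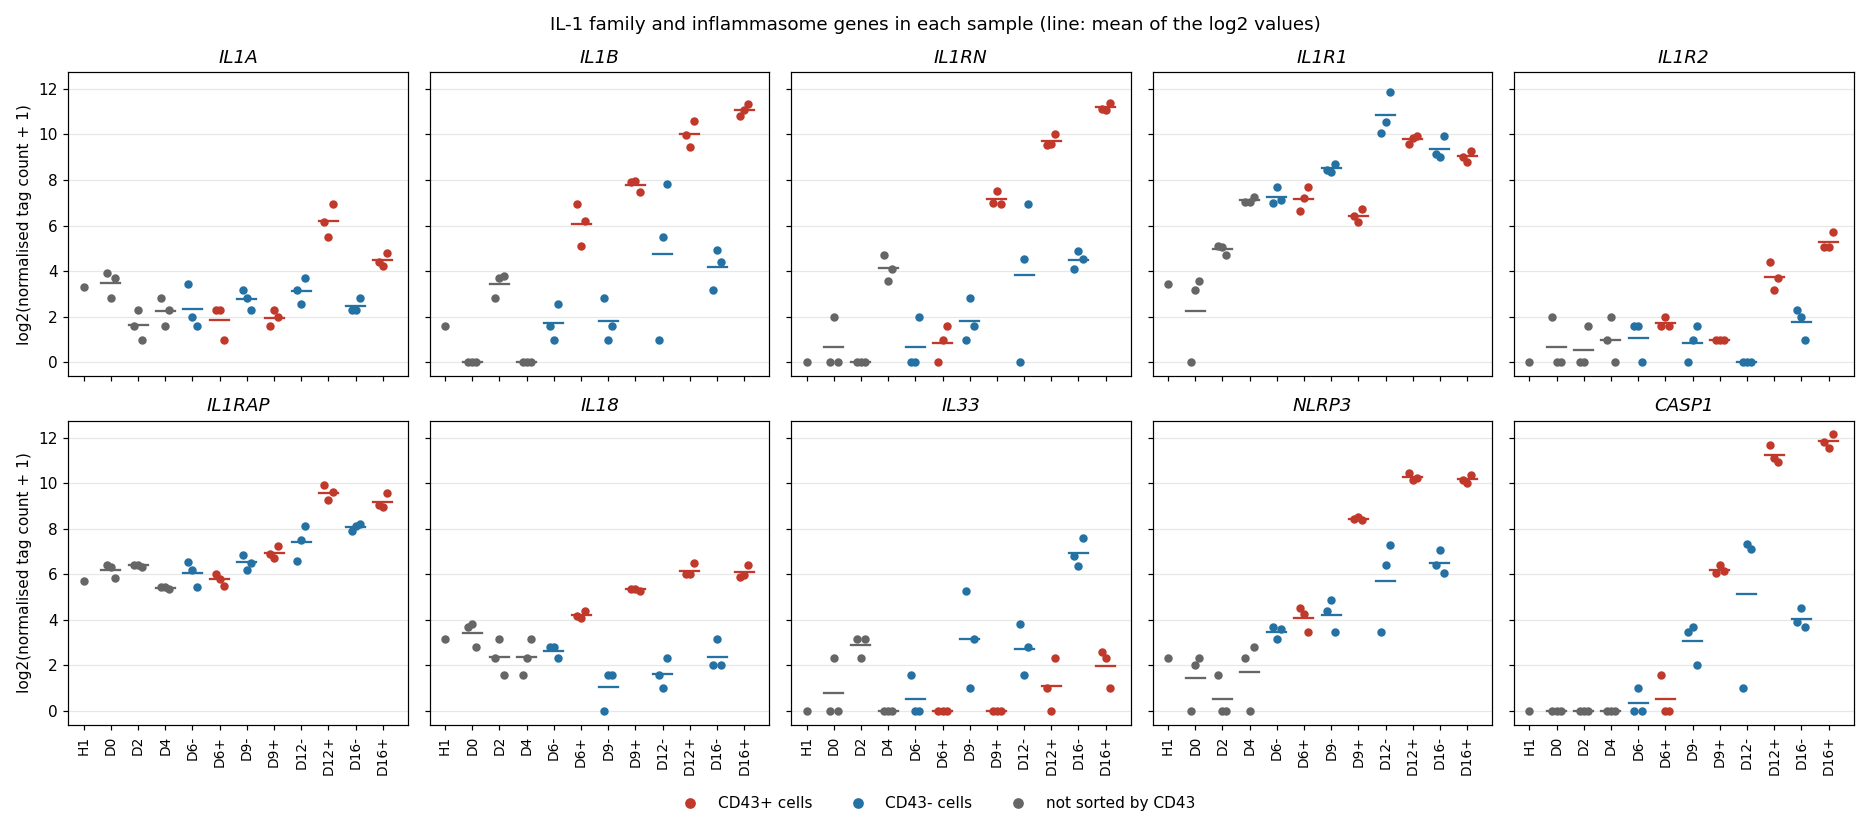
Levels of the 10 genes in every sample, as log2(normalised tag count + 1), in the 12 populations in order of time. Points are samples, lines are means of the log2 values of 3 samples, red marks CD43+ cells, blue CD43- cells and grey unsorted cells. IL1B, IL1RN, NLRP3 and CASP1 climb in CD43+ cells to day 12, IL1R1 is highest on day 12 in both populations, and IL33 is highest in day 16 CD43- cells.

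IL1B, IL18, IL1RN, NLRP3 and CASP1 were higher in CD43+ than in CD43- cells on days 9, 12 and 16. IL1A, IL1R2 and IL1RAP joined them on day 12, IL33 was lower in CD43+ cells on days 9 and 16, and IL1R1 was lower on day 9. On day 6, 1 of the 10 genes differed between CD43+ and CD43- cells, IL1B, where 12.5% of all 19788 genes tested were called. On day 9, 5 were higher and 2 lower in CD43+ cells, where 8.65% of all genes were called higher and 12.8% lower. On day 12, 8 were higher and 0 lower, where 11.8% and 14.4% of all genes were. On day 16, 6 were higher and 1 lower, where 12.2% and 13.6% of all genes were. The median log2 fold change of the 10 genes was 0.19, 1.79, 4.14 and 3.57 on days 6, 9, 12 and 16, where that of all genes tested was 0.14, 0.24, 0.22 and 0.14. The day 12 median rests in part on IL1R2, whose fold against samples listed at 0 depends on the added 1.

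**Figure D2:**
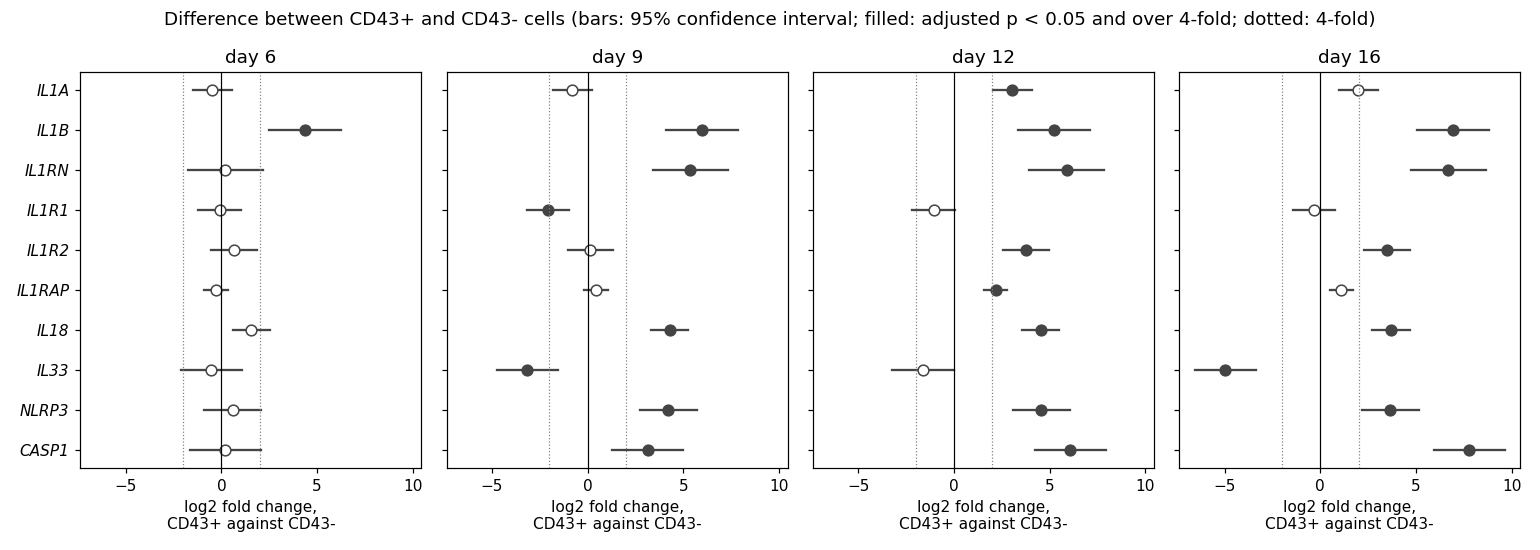
Log2 fold change of CD43+ against CD43- cells for each of the 10 genes on days 6, 9, 12 and 16, from limma on log2(level + 1). Bars are 95% confidence intervals, filled points passed the adjusted p of 0.05 and the 4-fold limit drawn as dotted lines, and IL1B is a filled point on all 4 days. IL33 on day 9 and IL1R2 on day 12 are set against a population listed at 0, so their positions depend on the added 1.

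IL1B, the gene of the inducible cytokine IL-1β, was the gene of the set that was called on day 6 and on every later day. Its level was 122, 34 and 72 in the 3 day 6 CD43+ samples and 2, 1 and 5 in the day 6 CD43- samples. The populations did not overlap, and the difference was 4.36 on the log2 scale (SE 0.91, adjusted p = 0.000265, limma). On day 9 the CD43+ samples were at 242, 247 and 178 and the CD43- samples at 6, 1 and 2 (log2 fold change 5.99, SE 0.91, adjusted p = 2.3e-06). On day 12 the CD43+ samples were at 1020, 694 and 1547, and the CD43- samples spread widely, at 1, 44 and 224. Sample 1, which had the lowest sums of myeloid markers, was the lowest of the CD43- samples and sample 3, which had the highest, was the highest. The log2 fold change was 5.24 (SE 0.91, adjusted p = 1.34e-05) with all samples, 9.01 without CD43- samples 2 and 3, and 3.36 without CD43- sample 1. The 9.01 is set against 1 sample at a level of 1, so its size depends on the added 1. On day 16 IL1B was at 1821, 2185 and 2585 in CD43+ cells, its highest levels of all, and at 8, 30 and 20 in CD43- cells (log2 fold change 6.92, SE 0.91, adjusted p = 2.01e-07).

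The differences between CD43+ and CD43- cells were also set against each other between days, as contrasts of the same limma fit. From day 6 to day 9 the difference grew towards CD43+ cells for 3 of the 10 genes (IL1RN, IL18 and NLRP3), where it did for 3.21% of all genes. From day 9 to day 12 it grew for 2 (IL1A and IL1R2), against 4.61%, and from day 12 to day 16 it moved towards CD43- cells for 1 (IL33), against 2.17%. Between days 6 and 16 it changed for 7 of the 10 genes, against 19.2% of all genes, and IL1B, IL1R1 and IL1RAP were not among them.

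Before sorting, IL1B had a brief appearance on day 2. It was listed at 0 in all day 0 samples, at 6, 12 and 13 on day 2 and at 0 again in all day 4 samples, with 2 in the undifferentiated cells. Both steps were called by limma (adjusted p = 0.00405 and 0.00399), at levels far under the median of 197 in a sample, and both calls were lost with a pseudocount of 10 (adjusted p = 0.188 and 0.187). From day 4 the gene rose in the day 6 CD43+ cells (adjusted p = 3.76e-06), and no fold is given against a population listed at 0.

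IL1A, the gene of IL-1α, was highest in the day 12 CD43+ cells. Its level was 70, 44 and 124 in day 12 CD43+ cells and 8, 5 and 12 in day 12 CD43- cells. These samples did not overlap (log2 fold change 3.05, SE 0.50, adjusted p = 6.14e-06, limma). On day 16 the CD43+ samples were at 20, 18 and 27 and the CD43- samples at 4, 4 and 6. They did not overlap either, but the log2 fold change of 2.0 (SE 0.50, adjusted p = 0.00103) was just under the 4-fold limit, and it was 2.16, 2.04 and 2.12, past the limit, without CD43- sample 3, CD43+ sample 1 or CD43+ sample 2. In all other samples IL1A was at 14 or lower, and on days 6 and 9 the sorted populations overlapped.

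IL1RN, the gene of the IL-1 receptor antagonist, entered later than IL1B. On day 6 it was at 0, 1 and 2 in CD43+ cells and at 0, 0 and 3 in CD43- cells, which overlapped. On day 9 it was at 128, 180 and 122 in CD43+ cells and at 1, 6 and 2 in CD43- cells (log2 fold change 5.35, SE 0.96, adjusted p = 2.1e-05, limma). On day 12 the CD43+ samples were at 752, 760 and 1030 and the CD43- samples at 0, 22 and 124, in the same order as the sums of macrophage, neutrophil and megakaryocyte markers. The log2 fold change was 5.88 (SE 0.96, adjusted p = 4.84e-06), 9.71 without CD43- samples 2 and 3, and 3.97 without CD43- sample 1. The 9.71 is set against 1 sample listed at 0, so its size depends on the added 1. On day 16 it was at 2210, 2128 and 2691 in CD43+ cells and at 16, 29 and 22 in CD43- cells (log2 fold change 6.68, SE 0.96, adjusted p = 7.16e-07). The antagonist thus had its highest levels in the same population as IL1B. It also had an early peak on day 4, at 25, 11 and 16, between a day 2 at which it was listed at 0 in every sample and day 6 populations at 3 or lower, and both the rise to day 4 (adjusted p = 0.00116) and the fall to each day 6 population were called (log2 fold change -3.26, adjusted p = 0.00559 in CD43+ cells and -3.46, adjusted p = 0.00444 in CD43- cells). With a pseudocount of 10 these steps were 1.42, -1.29 and -1.29, under the 4-fold limit.

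IL18, the gene of a second cytokine cut by caspase-1, separated the populations at low levels. It was at 17, 16 and 20 in day 6 CD43+ cells and at 6, 6 and 4 in day 6 CD43- cells, without overlap and under the 4-fold limit (log2 fold change 1.57, SE 0.48, adjusted p = 0.00753, limma). On day 9 it was at 40, 40 and 38 against 0, 2 and 2 (log2 fold change 4.28, SE 0.48, adjusted p = 1.32e-08). On day 12 it was at 63, 64 and 88 against 2, 1 and 4, and on day 16 at 58, 62 and 85 against 3, 8 and 3. The log2 fold changes were 4.53 (adjusted p = 3.34e-09) and 3.71 (adjusted p = 1.24e-07), with an SE of 0.48 each. IL18 was at 4 or lower in all 3 day 12 CD43- samples, those with myeloid transcripts included. Its CD43+ levels were low as well, at 63 to 88. These samples therefore cannot show whether IL18 behaved differently there from IL1B, IL1RN, NLRP3 and CASP1.

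IL33, the nuclear cytokine of stromal and endothelial cells, had the opposite pattern. On day 16 it was at 110, 82 and 194 in CD43- cells and at 5, 4 and 1 in CD43+ cells. The CD43- samples of that day were the highest of all populations, and CD43+ cells were lower by a log2 fold change of -4.96 (SE 0.78, adjusted p = 3.26e-06, limma). On day 9 the CD43- samples were uneven, at 38, 1 and 8, and all CD43+ samples were listed at 0, a called difference (adjusted p = 0.00093) for which no fold is given and which was under the 4-fold limit with a pseudocount of 10. On day 12 it was at 13, 2 and 6 in CD43- cells and at 1, 0 and 4 in CD43+ cells, which overlapped (log2 fold change -1.63, SE 0.78, adjusted p = 0.0676). The difference was called without CD43- sample 2 (-2.20), without CD43+ sample 3 (-2.23) and without CD43- samples 2 and 3 together (-2.70, against 1 remaining CD43- sample), and it was not called where CD43+ sample 1 was left out with those 2 (-2.65, adjusted p = 0.0572). In CD43- cells the step from day 12 to day 16 was called higher, 1 of 10 genes against 4.46% of all genes (log2 fold change 4.19, SE 0.78, adjusted p = 9.79e-05).

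IL1R1, the signalling receptor of IL-1α and IL-1β, was the receptor gene of this set that rose before any blood cells were sorted. It was at 10 in the undifferentiated sample, at 0, 8 and 11 on day 0, at 34, 32 and 25 on day 2 and at 132, 129 and 150 on day 4. No day overlapped the next, and both steps were called (log2 fold change 2.71, adjusted p = 0.00026, and 2.15, adjusted p = 0.00253, limma). The first step was 1.58, under the 4-fold limit, without day 0 sample 1, which was listed at 0. Neither step was past the 4-fold limit with a pseudocount of 10 (1.37 and 1.87), and the second was not called with one of 0.1 (adjusted p = 0.0694). On day 6 the CD43+ samples (98, 146 and 208) and the CD43- samples (128, 206 and 138) overlapped. On day 9 the CD43- samples were higher, at 352, 331 and 417 against 86, 70 and 106 in CD43+ cells. The log2 fold change of -2.07 (SE 0.54, adjusted p = 0.00152) lies close to the 4-fold limit, and it was -1.97 without CD43- sample 3 and -1.92 without CD43+ sample 2. On day 12 both populations were high, at 1086, 1500 and 3781 in CD43- cells and 764, 918 and 978 in CD43+ cells. They did not overlap, and the difference was not called (log2 fold change -1.05, 95% confidence interval -2.17 to 0.06, adjusted p = 0.0859). The difference was -1.43 to -0.53 with single samples left out. It was -0.3 without CD43- samples 2 and 3, against 1 remaining CD43- sample. On day 16 the populations overlapped, at 558, 514 and 978 in CD43- cells and 520, 446 and 621 in CD43+ cells. From day 12 to day 16 IL1R1 fell without overlap in both, under the 4-fold limit. The log2 fold change was -1.48 in CD43- cells (adjusted p = 0.027, limma) and -0.75 in CD43+ cells (adjusted p = 0.277). On days 12 and 16 every sample of both populations was at 446 or higher in IL1R1. Receptor relatives outside the set moved early in both directions. Of 6 other IL-1 receptor family genes and IL18BP tested, 1 was called higher to day 2, where 4.40% of all genes were. To day 4, 2 were called higher and 1 lower, where 4.97% and 4.53% of all genes were. Their median log2 fold change to day 4 was -0.53. IL18R1 was at 20, 16 and 22 on day 4 after 2, 2 and 0 on day 2, and IL1RL1 at 34, 42 and 32 after 3, 2 and 6. IL1RAPL1 was at 3, 0 and 4 on day 0, at 16, 24 and 28 on day 2 and at 6, 2 and 6 on day 4. SIGIRR went from 775, 712 and 716 on day 0 to 382, 282 and 389 on day 4, and IL18BP from 368, 318 and 366 to 238, 226 and 233. IL18RAP was at 1 or lower on these days.

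IL1RAP, the co-receptor shared by IL1R1 and the IL-33 receptor, was present in every sample. It was at 40 to 92 in all samples up to day 6 and at 72 to 151 on day 9, where the sorted populations overlapped. On day 12 it was at 966, 603 and 775 in CD43+ cells and at 96, 181 and 280 in CD43- cells (log2 fold change 2.17, SE 0.30, adjusted p = 3.28e-07, limma). The populations did not overlap, and the difference was 1.76, under the 4-fold limit, without CD43- sample 1. On day 16 it was at 520, 487 and 746 in CD43+ cells and at 235, 280 and 290 in CD43- cells, again without overlap and under the limit (log2 fold change 1.10, SE 0.30, adjusted p = 0.00194). IL1R2, the decoy receptor, was at 4 or lower in every sample other than the late CD43+ cells. It was at 20, 8 and 12 in day 12 CD43+ cells, where all CD43- samples were listed at 0 (adjusted p = 2.31e-06), and at 32, 32 and 51 in day 16 CD43+ cells against 4, 3 and 1 (log2 fold change 3.49, SE 0.58, adjusted p = 7.02e-06). With a pseudocount of 10 neither difference of IL1R2 was past the 4-fold limit (1.19 and 1.92).

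NLRP3, the inflammasome sensor, followed the CD43+ cells from day 9. On day 6 it was at 22, 18 and 10 in CD43+ cells and at 12, 8 and 11 in CD43- cells, which overlapped. On day 9 it was at 338, 370 and 335 against 20, 28 and 10 (log2 fold change 4.21, SE 0.73, adjusted p = 1.35e-05, limma). On day 12 the CD43+ samples were at 1408, 1140 and 1180 and the CD43- samples at 10, 84 and 154, again lowest in the sample with few myeloid transcripts. The difference was 4.56 (SE 0.73, adjusted p = 3.66e-06), 6.81 without CD43- samples 2 and 3, and 3.43 without CD43- sample 1. On day 16 it was at 1132, 1016 and 1318 against 83, 133 and 66 (log2 fold change 3.66, SE 0.73, adjusted p = 7.62e-05).

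CASP1, the protease that NLRP3 activates, was listed at 0 in the undifferentiated sample and in all samples of days 0, 2 and 4, and was at 2 or lower on day 6. On day 9 it was at 65, 84 and 69 in CD43+ cells and at 10, 12 and 3 in CD43- cells (log2 fold change 3.14, SE 0.90, adjusted p = 0.00347, limma). On day 12 it was at 3226, 2194 and 1917 in CD43+ cells and at 1, 160 and 136 in CD43- cells. The CD43- samples 2 and 3 that held CASP1 were those with myeloid transcripts. The log2 fold change was 6.08 (SE 0.90, adjusted p = 1.27e-06) with all samples, 10.22 without these 2 and 4.01 without CD43- sample 1. The 10.22 is set against 1 sample at a level of 1, so its size depends on the added 1. On day 16 it was at 3614, 2937 and 4510 against 14, 22 and 12 (log2 fold change 7.78, SE 0.90, adjusted p = 2.13e-08).

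**Figure D3:**
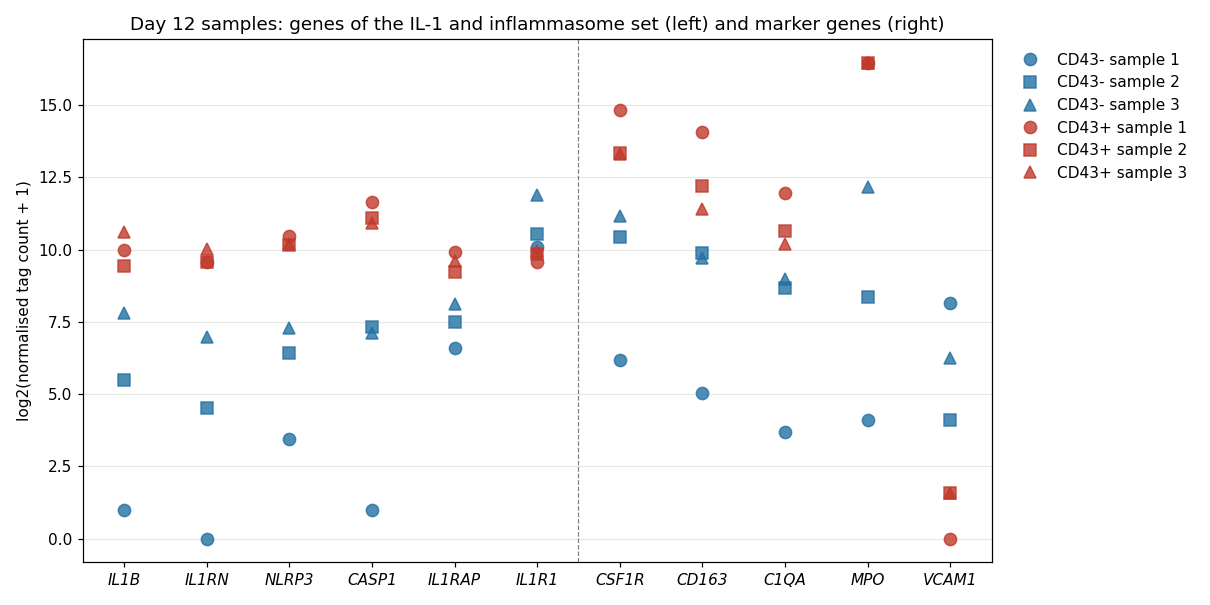
Levels, as log2(normalised tag count + 1), of 6 genes of the set (left of the dashed line) and 5 other genes (right) in the 6 day 12 samples. Red points are CD43+ and blue points CD43- samples, with a symbol for each sample. IL1B, IL1RN, NLRP3 and CASP1 are lowest in CD43- sample 1, as are the macrophage genes CSF1R, CD163 and C1QA, while IL1R1 is highest in CD43- sample 3. MPO marks neutrophils, and VCAM1 is an adhesion molecule of endothelial and stromal cells.

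The day 12 CD43- cells held these genes and transcripts of several blood lineages together. IL1B, IL1RN, NLRP3 and CASP1 were at 1, 0, 10 and 1 in CD43- sample 1 and at 44 to 224, 22 to 124, 84 to 154 and 136 to 160 in samples 2 and 3. The complement gene C1QA, made by macrophages, was at 12 in sample 1 and at 410 and 502 in the others. The part of macrophage, neutrophil or other blood cell transcripts in the levels of samples 2 and 3 was not tested. With CD43- sample 1 as the only one of its population 9 of the 10 genes were called, and with CD43+ sample 1 left out as well 8 were, IL33 being the difference. In the day 16 CD43- samples, sample 2 had the highest IL1B (30), IL1RN (29), NLRP3 (133) and CASP1 (22). It also had the highest sums of macrophage (2630, 8437 and 4598 in samples 1, 2 and 3) and neutrophil markers (7100, 21940 and 13773). The same held for megakaryocyte (4748, 14545 and 7371) and mast cell, eosinophil and basophil markers (922, 4390 and 2080). Erythroid sums were highest in sample 3 (1529, 1618 and 3370) and lymphoid sums in sample 1 (1175, 1042 and 1052). NLRP3 (66) and CASP1 (12) were lowest in sample 3, whereas the macrophage, neutrophil, megakaryocyte and mast cell sums were lowest in sample 1. The part of these blood cell transcripts was not tested.

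Within CD43+ cells, more of the genes rose from day 9 to day 12 than over the other steps. From day 6 to day 9, 3 of the 10 genes rose, where 3.56% of all genes did, namely IL1RN (log2 fold change 6.29, adjusted p = 1.08e-05, limma), NLRP3 (4.37, adjusted p = 3.68e-05) and CASP1 (5.67, adjusted p = 2.14e-05). The sizes for IL1RN and CASP1, at 2 or lower on day 6, depend on the added 1. From day 9 to day 12, 7 rose, where 8.45% of all genes did. They were IL1A (4.23, adjusted p = 7.9e-08), IL1RAP (2.64, adjusted p = 3.16e-08), IL1R1 (3.34, adjusted p = 8.63e-06), CASP1 (5.03, adjusted p = 3.51e-05), IL1R2 (2.75, adjusted p = 0.000235), IL1RN (2.56, adjusted p = 0.0246) and IL1B (2.22, adjusted p = 0.0404). Both chains of the IL-1 receptor, IL1R1 and IL1RAP, were thus among the genes that rose to day 12. The IL1B step was not called without any 1 of day 9 samples 1, 2 and 3 and day 12 samples 1 and 3 (1.93 to 2.31), nor the IL1RN step without day 9 sample 1 or 3 or day 12 sample 3 (2.41 to 2.49). The NLRP3 step of 1.83 (adjusted p = 0.034) was under the 4-fold limit. From day 9 to day 12 the markers of blood lineages also changed in CD43+ cells. All 12 monocyte and macrophage markers, 9 of 10 neutrophil markers and 4 of 8 mast cell, eosinophil and basophil markers were called higher. All 6 erythroid and 2 of 5 lymphoid markers were called lower, and 0 of 6 megakaryocyte markers were called. The median sums went from 5482 to 126638 for macrophage, from 24054 to 201187 for neutrophil and from 195140 to 9448 for erythroid markers. Those of mast cell, eosinophil and basophil markers went from 3095 to 57012. The part of these changes in the steps of the 10 genes was not tested. From day 12 to day 16, limma called 0 of the 10 genes, where 9.05% of all genes were called, and 2 had an unadjusted p below 0.05. These were IL1A, lower on day 16 by less than 4-fold (log2 fold change -1.72, adjusted p = 0.00747), and IL1R2, higher by less than 4-fold (1.51, adjusted p = 0.0377).

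Within CD43- cells, few of the genes moved. From day 6 to day 9 IL33 was called higher, 1 of 10 genes where 1.10% of all genes were, on uneven samples (2, 0 and 0 on day 6, 38, 1 and 8 on day 9, which overlapped). Its call was lost without day 6 sample 2 or 3 or day 9 sample 1 or 3, with values of 1.56 to 2.61. From day 9 to day 12 IL1R1 (log2 fold change 2.33, SE 0.54, adjusted p = 0.00145, limma) and IL1B (2.97, SE 0.91, adjusted p = 0.0123) were called higher, 2 of 10 where 4.52% of all genes were. The IL1B samples of the 2 days overlapped, and the IL1B step was not called without day 9 sample 2 (2.57), day 12 sample 2 (2.61) or day 12 sample 3 (1.45). The IL1R1 step was 1.80, under the limit, without day 12 sample 3. With day 12 sample 1 alone, in which IL1B was at 1, the IL1B step was -0.80 and the IL1R1 step 1.57, neither of them called, and a single sample does not test the step. From day 4 to day 6, 1 of the 10 genes was called in CD43- cells (IL1RN, lower, where 2.77% of all genes were) and 3 in CD43+ cells (IL1B and NLRP3 higher, IL1RN lower, where 6.80% and 7.73% were). NLRP3 was at 4, 0 and 6 on day 4 (log2 fold change 2.37 to day 6 CD43+ cells, adjusted p = 0.00784), and the step was 1.51 and not called without day 4 sample 2, listed at 0.

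From day 0 to day 2, 3 of the 10 genes were called higher (IL1B, IL1R1 and IL33), where 4.40% of all genes were. From day 2 to day 4, IL1RN and IL1R1 were called higher and IL1B and IL33 lower, where 4.97% and 4.53% of all genes were. IL33 was at 0, 4 and 0 on day 0, at 8, 4 and 8 on day 2 and listed at 0 on day 4. These early levels of IL33 overlapped between days 0 and 2, and the call to day 2 was lost without sample 1 or 3 of either day (1.73 to 1.97). In the single undifferentiated sample, IL1RN, IL1R2, IL33 and CASP1 were listed at 0, IL1B was at 2, NLRP3 at 4, IL18 at 8, IL1A at 9, IL1R1 at 10 and IL1RAP at 52, with no replicate to test against.

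Other genes of the pathway, from lists written from general knowledge, were read in the same fits. The lists were written with earlier results of these data known, so their counts are descriptions, to be read against the shares of all genes called higher (4.68%, 8.65%, 11.8% and 12.2% on days 6, 9, 12 and 16) and lower (7.85%, 12.8%, 14.4% and 13.6%). Of 18 other inflammasome sensors, adaptors, regulators and effectors tested, day 6 had 0 that were higher in CD43+ cells and 1 that was lower. Day 9 had 0 and 2, day 12 had 11 and 0, and day 16 had 10 and 0. Their median log2 fold change was -0.05, 0.74, 2.58 and 2.78 over these days. MEFV, which encodes the sensor pyrin, had the largest difference on day 12 (464.7 ± 117.5 against 7.7 ± 8.6, SD, n = 3 each, log2 fold change 6.51, adjusted p = 7.19e-09, limma) and likewise on day 16, with 7.08 (adjusted p = 1.63e-09). CARD16, a relative of CASP1 that lacks the protease domain, was lower in CD43+ cells on day 9 (3.0 against 83.3, log2 fold change -4.47, adjusted p = 6.18e-07), when CASP1 was higher, and was listed at 0 in all day 6 CD43+ samples (adjusted p = 0.00727). Later CARD16 was higher in CD43+ cells, as CASP1 was, at 264, 254 and 239 against 14, 154 and 32 on day 12 (log2 fold change 2.57, adjusted p = 0.000713) and by 4.62 on day 16 (adjusted p = 2.98e-07). Chosen after their values were seen, PYCARD, the adaptor between NLRP3 and CASP1, was higher in CD43+ cells on day 12 (1438.7 ± 119.8 against 207.7 ± 92.9, log2 fold change 2.90, adjusted p = 4.37e-12) and by 2.96 on day 16 (adjusted p = 3.16e-12), and NLRC4, another sensor, on day 12 (5.94, adjusted p = 7.11e-10). GSDMD, the pore protein that caspase-1 cuts, differed by 0.97 on day 12 (adjusted p = 5.1e-10), under the limit.

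**Figure D4:**
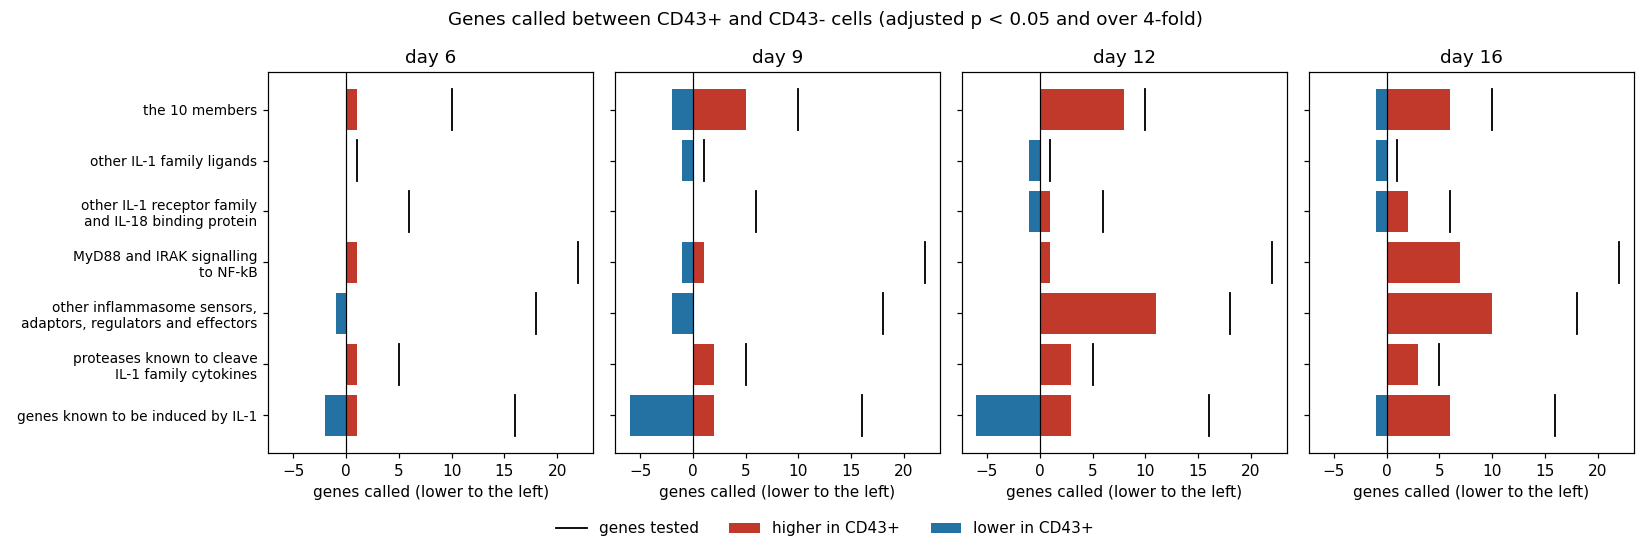
Number of genes that passed the test of CD43+ against CD43- cells, on days 6, 9, 12 and 16, for the 10 genes and for 6 lists of related genes. Red bars to the right are genes higher and blue bars to the left genes lower in CD43+ cells, and black ticks mark the number tested. The inflammasome list turns from 0 genes higher on day 9 to 11 of 18 on day 12, and IL-1-induced genes are called in both directions.

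Of 22 genes that carry the signal from IL-1 receptors to NF-kB, through MYD88 and the IRAK kinases, 1 was higher on day 6, 1 higher and 1 lower on day 9, 1 higher on day 12 and 7 higher on day 16 (median log2 fold change 0.85 on day 16), so that the counts of days 6, 9 and 12 were near or under the shares of all genes. IRAK3, an inhibitory member of the kinase family, had the largest difference on each day, at 1852.0 ± 99.2 against 86.7 ± 55.0 on day 12 (log2 fold change 4.64, adjusted p = 1.39e-10, limma) and at 2536.0 ± 267.5 against 101.7 ± 57.1 on day 16 (4.77, adjusted p = 8.61e-11), after 2.08 on day 6 and 3.17 on day 9. TNFAIP3, which encodes the NF-kB inhibitor A20, was lower in CD43+ cells on day 9 (-2.79, adjusted p = 2.71e-08). Of 5 proteases known to cut IL-1 family cytokines, 1, 2, 3 and 3 were higher over the 4 days and 0 lower. The neutrophil granule protease CTSG led them on day 6 (log2 fold change 3.57, adjusted p = 0.000584) and PRTN3, another, on day 9 (9.71, adjusted p = 1.97e-07). CTSG was at 2987.3 ± 849.4 against 6.0 ± 10.4 on day 12 (10.09, adjusted p = 1.68e-11) and ELANE, neutrophil elastase, at 5484.0 ± 1922.5 against 207.3 ± 143.1 on day 16 (4.94, adjusted p = 1.11e-08).

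Of 6 other IL-1 receptor family genes and IL18BP tested, 0 were called on days 6 and 9, 1 was higher and 1 lower on day 12, and 2 were higher and 1 lower on day 16. IL18RAP, the signalling chain of the IL-18 receptor, was higher in CD43+ cells on day 12 (232.7 ± 58.6 against 1.3 ± 2.3, log2 fold change 7.07, adjusted p = 3.64e-10, limma) and by 5.0 on day 16 (adjusted p = 1.96e-07). IL1RAPL1, a receptor relative known from neurons, was lower on day 16 (-2.34, adjusted p = 0.000608) and listed at 0 in all day 12 CD43+ samples (adjusted p = 7.22e-06). Of the other IL-1 family ligands IL36RN was tested, at 1.0 on average in day 16 CD43+ cells and 11.3 in CD43- cells (-2.91, adjusted p = 0.000666), and it was listed at 0 in all day 9 CD43+ samples (adjusted p = 0.00443). Of 16 genes known to be induced by IL-1, day 6 had 1 that was higher in CD43+ cells and 2 that were lower. Day 9 had 2 and 6, day 12 had 3 and 6, and day 16 had 6 and 1. The neutrophil attractant CXCL8 was the highest of them on day 16, at a mean of 4528.3 ± 3736.5 against 18 to 22 (log2 fold change 7.44, adjusted p = 6.93e-09), and the collagenase MMP1 the lowest, at 18.0 ± 4.0 against 768.0 ± 149.8 (-5.34, adjusted p = 1.99e-08). CXCL8 also had the largest positive difference on day 9 (4.62, adjusted p = 1.69e-05) and MMP1 the largest negative one on day 6 (-6.46, adjusted p = 2.47e-09), while CXCL6, another neutrophil attractant, led on day 6 (2.53, adjusted p = 0.000134) and again on day 12, with 4.57 (adjusted p = 6.42e-09). The adhesion molecule VCAM1 was lower in CD43+ cells on day 9 (log2 fold change -4.95, adjusted p = 8.04e-06) and also on day 12, by -5.11 (adjusted p = 4.34e-06). Genes of this list were thus called in both directions on every day.

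For the 7 genes of the set with a mean level of at least 100 in some population, the protein-coding genes outside the set with the most similar pattern were found by Pearson's r of the mean log2 levels over the 12 populations. These points share libraries and the steep CD43+ increase of many genes, so r is a description. CASP1 was most like SP140L (r = 0.991), ZFP92 and RIPK3, and NLRP3 most like ASGR2 (r = 0.986), SRGN and IL10RA. IL1B was most like ARHGAP30 (r = 0.976), STX4 and LILRB2, IL1RN most like SYTL3 (r = 0.967), ANKRD13A and MRVI1, and IL1RAP most like ALPK1 (r = 0.976), HCAR2 and SLFN11. IL1R1 was most like SPEF2 (r = 0.962), LURAP1L and YPEL5, whose highest levels were in day 12 or 16 CD43- cells. IL33 had the least close neighbours, NXPE4 (r = 0.919), CFAP70 and PENK, all highest in day 16 CD43- cells. Among the 10 genes themselves the closest pair was NLRP3 and CASP1 (r = 0.95), followed by IL1RN and CASP1 and by IL1RAP and CASP1 (r = 0.94 each), while IL33 and IL18 had the lowest r (-0.37).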

How the data were processed

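The RNA-seq table covers 34 samples of 12 populations of differentiating H1 cells, grouped by their labels. The authors aligned reads with bowtie and RSEM, normalised them with EDASeq for GC content and between samples, and tested genes with DESeq2. The deposited values are the authors' normalised tag counts, treated here as a score because they are rounded and neither raw counts nor CPM. All columns held whole numbers and the same total of 17856940, so library size, depth and counting error cannot be given. The deposited table also lists a GC percent per gene, which was not used in any test. The authors' limits of 0.05 for the adjusted p and 4 for the fold were kept here.

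Here log2(value + 1) of 33 samples was fitted together by limma (version 3.58.1, R 4.3.3, moderated variances with a mean trend), with a mean for each population and no replicate block. The undifferentiated sample was left out. Of all genes, 19788 reached 10 in 3 samples or more and were tested, and 467 did not. P-values were adjusted over all genes tested. The samples are described as independent biological repeats. All 10 genes passed the filter. The members and gene lists were chosen with earlier results of these data known. By rule, all 10 members were named, with the called gene of each list that had the largest change in either direction without overlap on each day, and the 3 genes most alike in pattern. SPN and PTPRC were named to check the sort. Other genes, among them CSF1R, CD163, C1QA, MPO, IL18R1, IL1RL1 and PYCARD, were named outside this rule, after their values were seen. Three-sample populations carried numbered samples. CD43+ and CD43- samples with the same number, taken relative to the mean of their population, were correlated across genes. The correlation was 0.109 to 0.199 on day 6, 0.017 to 0.078 on day 9, 0.039 to 0.108 on day 12 and -0.015 to 0.042 on day 16. On days 6 and 12 every CD43+ sample was most like the CD43- sample of its own number, and on days 9 and 16 not all were. The numbers may thus mark pairs on day 6 and, at lower correlations, on day 12. The alternatives were pseudocounts of 0.1 and 10, no filter, a filter of 100 in 3 samples, median-of-ratios scaling, robust variances, a replicate block, a fit of the populations compared, a fold change above 2, and leaving out each sample in turn. Leaving out the day 12 CD43- samples 2 and 3, with or without CD43+ sample 1, a block within day 6 and protein-coding genes only were chosen after seeing the data. The procedure was tested on simulated data. Genes of the IL-1 family such as IL36A and IL37 were not analysed here. Promoter sequences come from RefSeq (GRCh38.p14) and exons from GENCODE v29.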

Additional observations from a re-analysis of the deposited data

Results flagged for a closer look

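The difference between CD43+ and CD43- cells itself changed between days for 7 of the 10 genes, as a contrast of the same limma fit. Each value is the later log2 difference of level + 1 minus the earlier, with its adjusted p. From day 6 to day 9 it grew for IL1RN (5.16, adjusted p = 0.00789), NLRP3 (3.62, adjusted p = 0.0139) and IL18 (2.71, adjusted p = 0.0053). From day 9 to day 12 it grew for IL1A (3.85, adjusted p = 0.000186) and for the decoy receptor IL1R2 (3.62, adjusted p = 0.00149). From day 12 to day 16 it changed for IL33 (-3.33, adjusted p = 0.0378), towards CD43- cells, and this call was lost without any 1 of day 12 CD43- samples 2 and 3, day 12 CD43+ sample 3, day 16 CD43- samples 1 and 3 and day 16 CD43+ sample 3 (-3.40 to -2.72), and without day 12 CD43- samples 2 and 3 together (-2.26, adjusted p = 0.254).

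From day 6 to day 16, where 19.2% of all genes were called, the change was called for 7 of the 10 genes. It was 7.59 for CASP1 (adjusted p = 2.04e-05), 6.49 for IL1RN (adjusted p = 0.000267), 3.07 for NLRP3 (adjusted p = 0.0153), 2.82 for IL1R2 (adjusted p = 0.00576), 2.47 for IL1A (adjusted p = 0.00548), 2.13 for IL18 (adjusted p = 0.0104) and -4.43 for IL33 (adjusted p = 0.00163). IL1B was not among them (2.55, 95% confidence interval -0.11 to 5.21, adjusted p = 0.107), and its populations already differed on day 6. The change of IL1A was 1.91, under the 4-fold limit, without day 6 CD43- sample 1, and that of IL18 was 1.94 to 1.97 without day 16 CD43- sample 1 or 3 or CD43+ sample 3. CASP1, IL33, IL1RN and IL1R2 were at 3 or lower in the day 6 populations, so the sizes of their changes depend on the added 1. With a pseudocount of 0.1, 7 of these 13 calls were lost (IL1RN and NLRP3 to day 9, IL33 from day 12 to 16, and IL1R2, IL18, IL33 and NLRP3 from day 6 to 16). With a pseudocount of 10, 5 were lost (IL18 to day 9, IL1R2 to day 12, and IL1A, IL1R2 and IL18 from day 6 to 16), so the 3 calls kept under both were those of IL1A to day 12 and of CASP1 and IL1RN from day 6 to 16.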

How the results depend on the processing

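Of the 10 genes, 1, 7, 8 and 7 differed between the sorted populations on days 6, 9, 12 and 16, and these counts stayed within 1.5 times under all planned settings but 2. The exceptions were a filter of 100 in at least 3 samples, which left 5 called on day 12 and 4 on day 16 because fewer of the 10 genes were tested, and a fold change above 2, which gave 2 on day 6. Leaving out single samples gave 1, 6 to 7, 7 to 9 and 7 to 8 genes. The replicate block gave the same counts of 1, 7, 8 and 7, the block within day 6 alone gave 1, and neither changed a call of any member. Directions turned only at small, uncalled differences. Without 1 sample each, day 6 differences ranged from -0.85 to 0.09 for IL1A, -0.17 to 0.86 for IL1RN, -0.36 to 0.18 for IL1R1, -0.79 to 0 for IL33 and -0.33 to 0.53 for CASP1, and the day 9 difference of IL1R2 from -0.29 to 0.50. The exception was the rise of IL1B from day 9 to day 12 in CD43- cells, at -0.80 without day 12 samples 2 and 3, which leaves 1 sample of that population. With a pseudocount of 10, 21 calls of single genes and comparisons were lost, among them IL1R1 on day 9 (-1.96), the steps of IL1R1 to day 2 (1.37) and to day 4 (1.87), and NLRP3 from day 4 to day 6 CD43+ cells (adjusted p = 0.0506). With 0.1, 12 were lost, among them IL1R1 on day 9 (adjusted p = 0.0504) and the rise of IL1B (adjusted p = 0.0812) and IL1RN (adjusted p = 0.202) in CD43+ cells from day 9 to day 12, and IL1A on day 16 was gained (2.20). In a fit of only the populations compared, 5 were lost, namely IL1R1 and IL33 from day 0 to day 2 (adjusted p = 0.0807 and 0.0648), IL33 from day 6 to day 9 and IL1B from day 9 to day 12 in CD43- cells (adjusted p = 0.373 and 0.298) and the change of IL33 from day 12 to day 16 (adjusted p = 0.075). Depth is unknown, so the counting error of levels of a few tags cannot be given. Calls of IL33, IL1R2 and the early IL1B and IL1RN rest on such levels.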
